A study of Mus musculus with 46 samples.

Results

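The 36 genes of aminoacyl-tRNA synthetases were followed in liver, kidney and cerebellum of mice that differed in ADAR1 p150. They were picked by name from the 53465 genes of the deposited count table. The set holds 20 cytosolic enzymes (Aars, Cars, Dars, Eprs, Farsa, Farsb, Gars, Hars, Iars, Kars, Lars, Mars, Nars, Qars, Rars, Sars, Tars, Vars, Wars and Yars) and 16 mitochondrial ones, whose symbols end in 2 (Aars2, Cars2, Ears2, Fars2, Hars2, Iars2, Lars2, Mars2, Nars2, Pars2, Rars2, Sars2, Tars2, Vars2, Wars2 and Yars2). All 36 passed the filter on low counts in every comparison. The animals were C57BL/6 mice at postnatal day 23. Every animal, controls included, carried the P195A allele, and the labels give the genotypes as P195A_p150neg and P195A_p150pos. Of 46 libraries from 16 animals (8 of each genotype, numbered 1 to 16 here), 41 were used. These were 7 p150neg and 7 p150pos livers, 5 p150neg and 7 p150pos kidneys, and 8 p150neg and 7 p150pos cerebella. The labels do not give the sex of the animals or describe the alleles further, and the p150pos animals are not wild type.

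Aminoacyl-tRNA synthetases join each amino acid to its tRNA and so supply the ribosome. Cytosolic translation and mitochondrial translation use separate enzymes, all encoded in the nucleus. For glycine and lysine 1 gene (Gars, Kars) serves both compartments, Eprs carries the glutamate and proline activities in 1 protein, and Farsa and Farsb are the subunits of the cytosolic phenylalanine enzyme. Several cytosolic enzymes sit in a multisynthetase complex on the scaffold proteins Aimp1, Aimp2 and Eef1e1. When eIF2 kinases are active, the factor ATF4 raises the transcription of many cytosolic synthetases together with genes of amino acid supply such as Asns, through the C/EBP-ATF response element. Wars, the cytosolic tryptophan enzyme, is also a known target of interferon gamma. ADAR1 p150 is the interferon-inducible form of an enzyme that edits double-stranded RNA and so keeps it from being sensed as foreign. Its Z-nucleic acid binding domain is the site of the P195A change.

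Promoter sequences were available for 26 of the 36 members (12 cytosolic, 14 mitochondrial) in the RefSeq table for GRCm38.p6, as 250 bases before and 50 after each start. The 8-letter form TGATGNAA of the C/EBP-ATF response element, searched on both strands, occurred in 3.97% of the 32851 promoters of that table. It occurred in 5 of the 12 cytosolic members and in 0 of the 14 mitochondrial ones. The percentages count promoters, of which a gene can have several, whereas a member counts once if any of its promoters matched. Windows of 30 bases around 1 match per gene are shown because they mark the members that share the element with Asns, a gene that rose in the p150neg liver. Each is written along its gene's strand, with the matching bases in capitals.
Aars at chr8:111033840-111033869, plus strand: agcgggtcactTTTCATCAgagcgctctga
Gars at chr6:55037960-55037989, plus strand: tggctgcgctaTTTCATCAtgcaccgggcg
Iars at chr13:49682126-49682155, plus strand: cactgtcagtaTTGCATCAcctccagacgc
Tars at chr15:11399655-11399684, minus strand: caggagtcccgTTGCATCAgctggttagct
Yars at chr4:129189895-129189924, plus strand: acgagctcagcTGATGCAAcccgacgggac
Asns at chr6:7693214-7693243, minus strand: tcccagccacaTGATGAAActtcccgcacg
The interferon-stimulated response element, by its usual 10-base core, occurred in 3.44% of all promoters and in 1 member, Qars. The gamma-activated site TTCNNNGAA occurred in 8.3% of all promoters and in 3 members, Aars, Kars and Nars2. Wars had no entry in the promoter table, nor did Cars, Hars, Lars, Mars, Nars, Rars, Vars, Hars2 and Pars2. These members were not searched for any of the motifs. The motifs were searched separately and on both strands, and a match describes letters only.

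Total counts of the 41 libraries ran from 0.269 to 6.24 M (M, 1000000 counts). The 5 libraries left out carried at most 0.825% of the usual level of their labelled organ's identity genes, and those kept carried at least 59.8%. Of the kept libraries, 3 detected fewer genes than 80% of their tissue's median. They were the kidney of p150neg animal 3 (0.269 M counts, 18 of the 36 members at 0), the kidney of p150pos animal 5 (1.3 M, 7 members at 0) and the cerebellum of p150neg animal 11 (0.945 M, 6 members at 0). In the kidney of animal 3 a count of 0 allows up to 11.1 counts per 1000000, for counting error only. Levels within a tissue are given as counts per 1000000 after TMM normalisation (CPM), and differences as log2 fold changes of p150neg over p150pos with their SE. By edgeR's quasi-likelihood test a gene was called when its p, adjusted by Benjamini and Hochberg's method over every gene of the comparison, was under 0.05.

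In liver, 1 of the 36 synthetases fell and 0 rose, against 4.76% of 9843 tested genes called lower and 6.94% called higher. The gene that fell was Aars2, the mitochondrial alanine enzyme. In liver its level was 6.10 at the lowest, 12.3 at the median and 18.2 CPM at the highest of 7 p150neg libraries, and 17.7, 22.6 and 36.4 CPM in the 7 p150pos libraries. Every p150neg library lay below the p150pos median, 6 of 7 lay below all p150pos libraries, and the groups overlapped only where p150neg animal 9 (18.2 CPM) passed p150pos animal 15 (17.7 CPM). The mean was 11.7 ± 4.81 CPM against 25.5 ± 8.00 CPM (SD, n = 7 each), a log2 fold change of -1.08 ± 0.27 with a 95% interval of -1.65 to -0.51 and an adjusted p of 0.0116 (edgeR). Over 22 alternatives the log2 fold change stayed between -1.22 and -0.96 and the adjusted p between 0.00381 and 0.031. Among these, the fit without libraries under 1000000 counts and the fit without p150neg animal 16 are the same. These values rest on few reads, from 3 to 62 per p150neg library. In RNA of whole tissue, fewer cells of a type and less RNA per cell cannot be told apart.

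Aars2 lies on chr17:45506841-45520843 of GRCm38, plus strand, and shares no exon bases with another annotated gene. The 250 bases before the upstream one of its RefSeq starts (chr17:45506582-45506831) are shown because it is the member called.
Aars2 upstream: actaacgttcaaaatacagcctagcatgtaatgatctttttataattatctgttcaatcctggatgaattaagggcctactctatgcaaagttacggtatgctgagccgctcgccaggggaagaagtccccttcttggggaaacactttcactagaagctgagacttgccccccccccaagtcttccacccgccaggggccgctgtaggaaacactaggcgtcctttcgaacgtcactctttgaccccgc
None of the 3 motifs searched occurred in the promoter windows of Aars2.

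After Aars2, the mitochondrial members with the smallest p in liver were Hars2 and Sars2, the histidine and serine enzymes. Hars2 ranged over 11.1, 22.2 and 32.2 CPM (lowest, median, highest) in p150neg liver and over 23.8, 37.3 and 42.8 CPM in p150pos liver. All 7 p150neg libraries lay below the p150pos median and 6 lay below every p150pos library, but the log2 fold change of -0.69 ± 0.23 had an adjusted p of 0.0564 (edgeR). Hars2 stands head to head with Hars, and the 2 genes share exon bases on opposite strands, where reads counted without strand cannot be told apart. The mitochondrial serine enzyme Sars2 ranged over 8.87, 12.8 and 16.9 CPM against 7.67, 21.3 and 23.7 CPM. Its lowest library was a p150pos one, and its log2 fold change was -0.53 ± 0.25 (adjusted p 0.205, edgeR).

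Among the cytosolic members, Cars, the cysteine enzyme, had the smallest p in liver. It ranged over 8.87, 22.5 and 44.2 CPM in p150neg and over 23.4, 39.2 and 47.9 CPM in p150pos liver, and 4 of 7 p150neg libraries lay below all p150pos ones. Among the p150neg livers only that of animal 9, at 44.2 CPM, lay above the p150pos median. The log2 fold change of Cars was -0.75 ± 0.26 with an adjusted p of 0.0695 (edgeR). Tars, the threonine enzyme, ranged over 54.9, 109 and 142 CPM against 113, 126 and 264 CPM, with a log2 fold change of -0.52 ± 0.23 (adjusted p 0.16, edgeR). Its p150pos maximum came from animal 12, without which the log2 fold change was -0.32, and 5 of 7 p150neg libraries lay below the p150pos minimum. Nars, the asparagine enzyme, ranged over 148, 170.3 and 191 CPM against 107, 143 and 174 CPM and had a log2 fold change of 0.22 ± 0.15 (adjusted p 0.442, edgeR), with all 7 p150neg livers above the p150pos median.

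The liver count depended on single libraries. Without p150neg animal 9, 2 members were called (Aars2 and Cars). Without p150neg animal 14, p150pos animal 12 or p150pos animal 15 the called members were Aars2 and Hars2. Without p150pos animal 13 there were 4, namely Aars2, Hars2, Cars and Sars2. DESeq2 called 3, Aars2, Hars2 (adjusted p 0.0421) and Cars (adjusted p 0.0494), all lower in p150neg. Aars2 was thus called in every one of these fits, and the other 3 in some of them.

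The cytosolic and mitochondrial members as classes sat close to all genes in liver. The median log2 fold change was -0.02 for the 20 cytosolic members (8 above 0, 12 below) and -0.18 for the 16 mitochondrial ones (4 above 0, 12 below). Over all genes tested it was -0.04, with 46.6% of genes above 0. For 19 of the 20 cytosolic members, all but Cars, the 95% interval lay within 1 log2 unit of 0 in both directions, as it did for 9 of the 16 mitochondrial members and for 59.2% of all genes. Changes of more than 1 log2 unit in either direction were thus outside the intervals of those 19 genes. The 7 mitochondrial members whose intervals reached past 1 log2 unit included Aars2, Hars2 and Sars2. Without the liver of p150neg animal 9 or of p150neg animal 16 the mitochondrial median was -0.28. An unadjusted p under 0.05 was found for 2 cytosolic and 3 mitochondrial members, against 23.3% of all genes. No member had groups without overlap in any tissue. Among all tested genes the groups were apart, with p150neg higher or lower, in 2.83% and 1.66% in liver, 0.686% and 1.5% in kidney, and 0.221% and 0.312% in cerebellum.

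**Figure D1:**
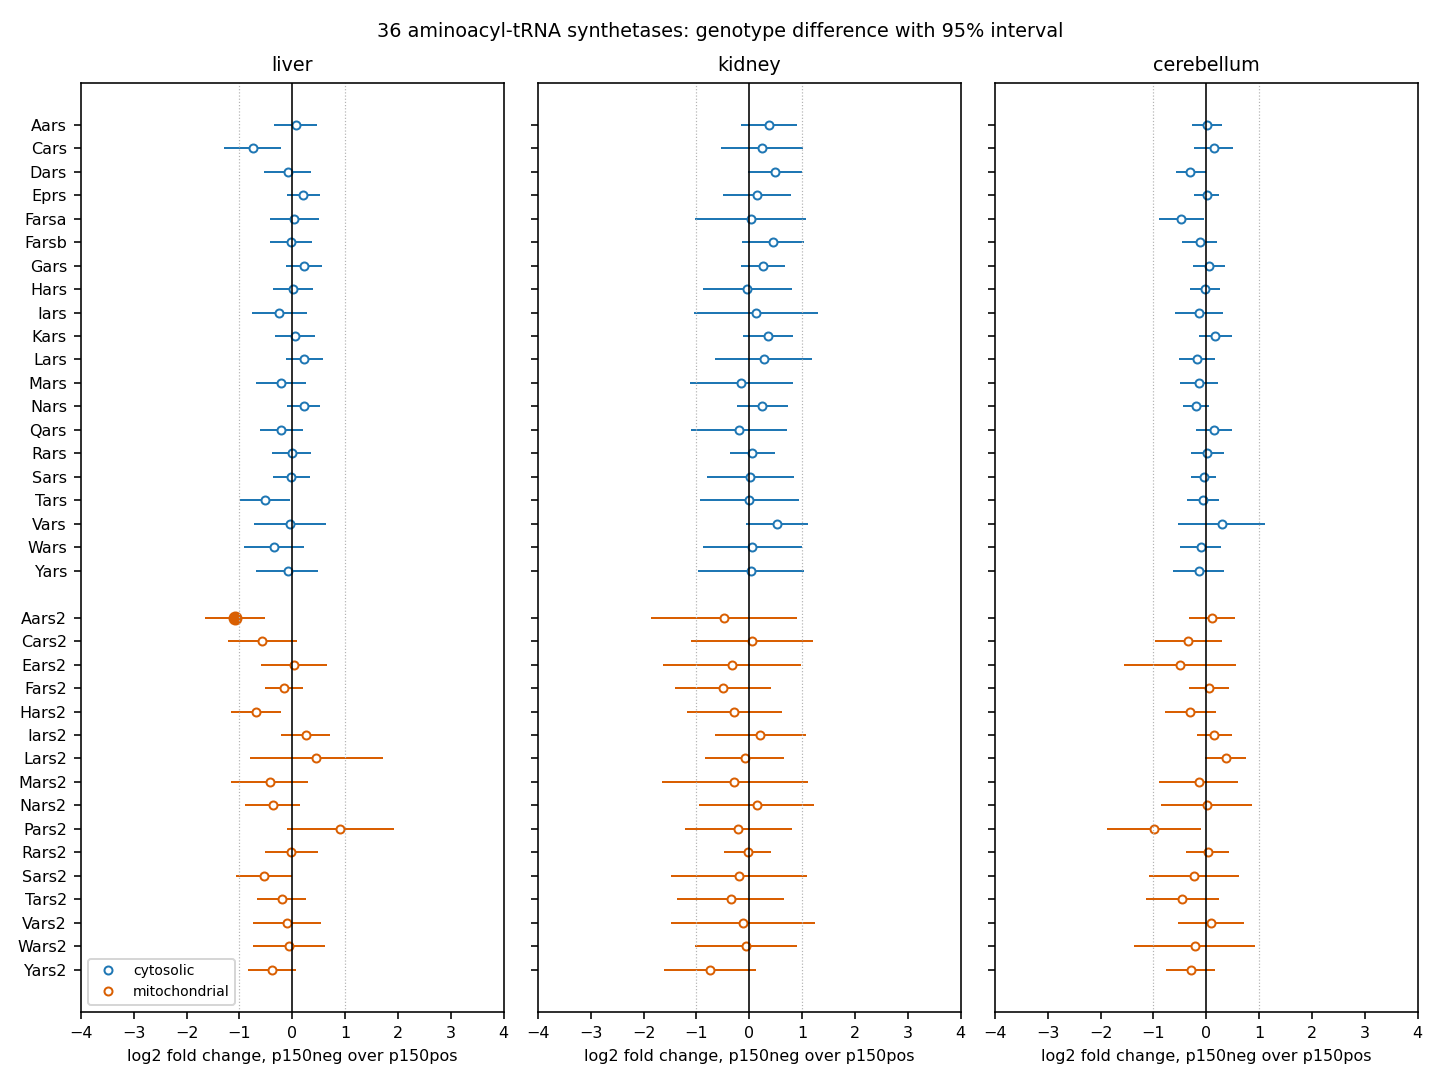
Log2 fold change of each synthetase, p150neg over p150pos (x axis), in liver, kidney and cerebellum, with 95% intervals as bars; cytosolic genes are blue and mitochondrial genes orange, a filled point is a called gene, and dotted lines mark 1 log2 unit. Aars2 in liver, at -1.08, is the single filled point, and the kidney intervals are the widest.

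Markers of other cell types differed between the same livers. The summed level of 9 neutrophil markers was 419 to 2104 CPM in p150neg and 28.2 to 167 CPM in p150pos livers, and 8 of the 8 markers that passed the filter rose. The 12 macrophage and monocyte markers summed to 1359 to 2775 CPM against 467 to 1106 CPM, and 11 of 12 rose. Neither pair of ranges overlapped. The 6 markers of dividing cells summed to 28.7 to 268 CPM against 41.3 to 239 CPM, and 0 of 6 were called. The part of these cells in the level of Aars2 was not tested.

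In kidney, 0 of the 36 members were called by edgeR, against 0.694% of 11957 genes called in either direction, and 0 members had an unadjusted p under 0.05 against 8.19% of genes. DESeq2 also called 0 of the 36. The 20 cytosolic members had a median log2 fold change of 0.14, with 17 above 0, and the 16 mitochondrial members a median of -0.20, with 13 below 0. Over all genes tested the median was -0.07, with 43.7% of genes above 0. Without the kidneys of animals 3 and 5, the 2 with few genes detected, the medians were again 0.14 and -0.20, with 17 of 20 cytosolic members above 0 and 2 of 16 mitochondrial members above 0. All genes then had a median of 0.00, and 265 genes were called higher and 267 lower, up from 46 and 37, with 0 members among them. Single libraries moved these medians, the cytosolic one to 0.26 without p150neg animal 3, 0.07 without p150neg animal 9, 0.01 without p150pos animal 5 and 0.09 without p150pos animal 15. The mitochondrial one moved to -0.07 without p150neg animal 3, -0.13 without p150neg animal 16, and -0.31 without p150neg animal 9 or without p150pos animal 4. Intervals lay within 1 log2 unit of 0 for 11 of 20 cytosolic and 2 of 16 mitochondrial members. For most of the mitochondrial genes the interval thus reached past 1 log2 unit in at least 1 direction. Its upper end lay below 1 log2 unit for 10 of the 16.

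Yars2, the mitochondrial tyrosine enzyme, had the smallest p of the mitochondrial members in kidney. Its level was 30.9, 0, 24.2, 37.8 and 28.9 CPM in the p150neg kidneys of animals 1, 3, 8, 9 and 16, and 33.4 at the lowest, 39.0 at the median and 58.3 CPM at the highest of 7 p150pos kidneys. All 5 p150neg kidneys lay below the p150pos median, and animal 9 alone overlapped the p150pos range. The log2 fold change of Yars2 was -0.75 ± 0.41 (adjusted p 0.712, edgeR), and -0.52 without the 2 kidneys with few genes detected (adjusted p 0.169).

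Fars2, the mitochondrial phenylalanine enzyme, measured 107, 0, 62.6, 86.4 and 86.2 CPM in the same 5 p150neg kidneys, against 81.5, 96.9 and 130 CPM (lowest, median, highest) in p150pos. The groups overlapped, and the log2 fold change was -0.50 ± 0.43 (adjusted p 0.887, edgeR) and -0.24 without animal 3. Aars2 measured 17.8, 0, 20.9, 29.3 and 13.8 CPM against 0, 24.9 and 41.5 CPM, with animal 3 and p150pos animal 5 at 0. Its difference of -0.48 ± 0.65 (adjusted p 0.961, edgeR) had a 95% interval of -1.86 to 0.90, wide enough to hold the value found in liver. It was -0.28 without p150neg animal 3 and -0.76 without p150neg animal 9.

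Among cytosolic members in kidney the smallest p values belonged to Dars, Vars and Kars, the aspartate, valine and lysine enzymes. Dars measured 182, 392, 150.2, 189 and 175 CPM in the p150neg kidneys of animals 1, 3, 8, 9 and 16, against 99.8, 157 and 199 CPM in p150pos. The highest value came from the shallow library of animal 3, without which the log2 fold change fell from 0.48 ± 0.24 (adjusted p 0.649, edgeR) to 0.18. Vars measured 42.8, 104, 54.9, 61.7 and 35.6 CPM against 33.4, 41.8 and 45.2 CPM, again highest in animal 3. Its log2 fold change was 0.52 ± 0.28 (adjusted p 0.693, edgeR) and 0.26 without that library. Kars measured 116, 114, 91.6, 99.0 and 87.7 CPM against 49.9, 81.2 and 98.9 CPM. All 5 p150neg kidneys lay above the p150pos median of Kars, and its log2 fold change was 0.36 ± 0.22 (adjusted p 0.761, edgeR).

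In cerebellum, 0 of the 36 members were called by edgeR or by DESeq2, against 0.997% of 13146 genes called in either direction by edgeR. Unadjusted p values under 0.05 were found for 2 cytosolic and 1 mitochondrial members, against 9.57% of all genes. The medians of the log2 fold change were -0.06 for cytosolic members (8 of 20 above 0) and -0.18 for mitochondrial ones (7 of 16 above 0). For all genes the median was 0.00, with 50.4% above 0. Without animal 11, the library with few genes detected, the cytosolic and mitochondrial medians were -0.02 and -0.06. Without p150pos animal 4 the mitochondrial median was -0.11. The intervals of 19 of 20 cytosolic members (all but Vars) and 11 of 16 mitochondrial members lay within 1 log2 unit of 0.

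Pars2, the mitochondrial proline enzyme and one of the lowest members, had the largest log2 fold change in cerebellum. It ranged over 0, 5.70 and 8.45 CPM in p150neg and over 6.43, 9.03 and 19.9 CPM in p150pos, with all 8 p150neg libraries below the p150pos median. The log2 fold change was -0.99 ± 0.42 (adjusted p 0.445, edgeR), and -0.84 without animal 11. In liver the estimate for Pars2 had the opposite sign, 0.91 ± 0.49 (adjusted p 0.276, edgeR).

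Farsa, a subunit of the cytosolic phenylalanine enzyme, ranged over 27.5, 55.5 and 79.0 CPM against 57.2, 75.2 and 94.6 CPM in cerebellum, which gave -0.47 ± 0.20 as the log2 fold change (adjusted p 0.441, edgeR). Dars ranged over 86.0, 152 and 181 CPM against 169.7, 179.6 and 217 CPM, with -0.30 ± 0.13 as the log2 fold change (adjusted p 0.488, edgeR). In both genes 7 of 8 p150neg cerebella lay below the p150pos median, yet the groups overlapped. Nars ranged over 199, 296 and 345 CPM against 289, 318 and 409.5 CPM (log2 fold change -0.19 ± 0.12, adjusted p 0.668, edgeR). Tars2 ranged over 1.04, 35.3 and 51.3 CPM against 39.6, 47.7 and 53.5 CPM (log2 fold change -0.45 ± 0.33, adjusted p 0.737, edgeR), and its lowest value was that of animal 11, without which the log2 fold change was -0.29. Lars2, the mitochondrial leucine enzyme, ranged over 299, 401 and 709.8 CPM against 277, 355 and 437 CPM, with 4 of 8 p150neg cerebella above every p150pos one. Its log2 fold change was 0.37 ± 0.19 (adjusted p 0.562, edgeR).

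**Figure D2:**
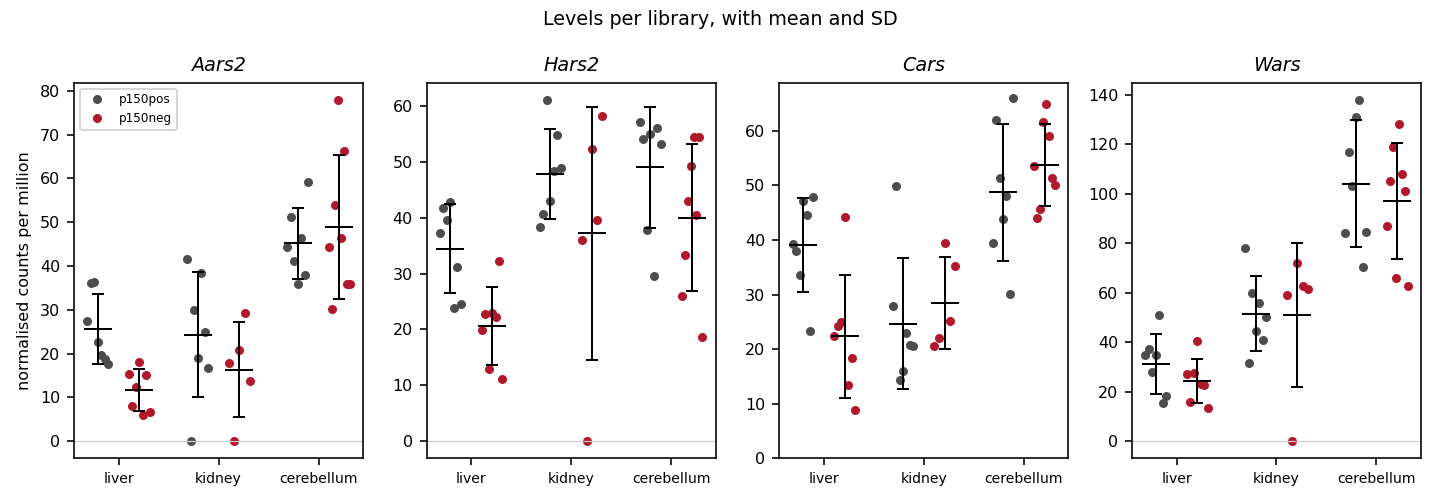
Normalised counts per 1000000 (CPM, y axis) of Aars2, Hars2, Cars and Wars in each library of liver, kidney and cerebellum; grey points are p150pos and red points p150neg libraries, with the mean as a long dash and the SD as a bar. Aars2 in p150neg liver sits between 6.10 and 18.2, below the p150pos median of 22.6, and the zeros in p150neg kidney are from animal 3.

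Wars, the member with a known interferon response, was called in 0 of the 3 tissues. In liver it ranged over 13.3, 23.1 and 40.3 CPM in p150neg and over 15.3, 34.8 and 50.9 CPM in p150pos, and its log2 fold change was -0.34 ± 0.27 (adjusted p 0.507, edgeR) with 6 of 7 p150neg livers below the p150pos median. Leaving out single livers gave -0.51 to -0.18, the latter without p150pos animal 12. In kidney the p150neg values were 59.1, 0, 72.1, 62.6 and 61.7 CPM in animals 1, 3, 8, 9 and 16, against 31.6, 50.1 and 78.1 CPM in p150pos. The log2 fold change there was 0.05 ± 0.44 (adjusted p 0.995, edgeR) and 0.30 without animal 3, whose library held 0 reads of Wars. In cerebellum Wars ranged over 62.8, 103 and 128 CPM against 70.3, 103 and 138 CPM, with -0.10 ± 0.18 as the log2 fold change (adjusted p 0.914, edgeR) with a 95% interval of -0.49 to 0.28. Leaving out single cerebella gave -0.18 to -0.03. Wars lies on chr12:108860030-108894174 of GRCm38, minus strand, and shares no exon bases with another gene.

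Many interferon-responsive genes rose in the same libraries, though not all of those listed. Of a list of type I interferon targets, 11 of 12 tested genes rose in liver, 8 of 11 in kidney and 10 of 11 in cerebellum, with median log2 fold changes of 2.43, 2.32 and 4.26. Another list held genes known to respond to interferon gamma, to which Wars belongs by its biology. Of its tested genes, 2 of 17 rose in liver, 4 of 16 in kidney and 10 of 16 in cerebellum. Among all genes tested, 6.94% were called higher in liver, 0.385% in kidney and 0.723% in cerebellum. Cxcl10, a chemokine of that list, rose by 2.64 ± 0.45 in liver, by 3.71 ± 0.60 in kidney and by 5.41 ± 0.72 in cerebellum (adjusted p 3.96e-04, 0.00664 and 3.84e-04, edgeR). Irf1, the factor through which interferon gamma acts on many promoters, had log2 fold changes of 0.35, 0.63 and 0.49 in liver, kidney and cerebellum and was not called in any.

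Genes that share the ATF4 response with the cytosolic synthetases were mixed in liver. Asns, which makes asparagine, ranged over 48.8, 88.0 and 175 CPM in p150neg and over 4.26, 7.14 and 15.6 CPM in p150pos liver. The ranges did not overlap, and the log2 fold change was 3.40 ± 0.34 (adjusted p 1.86e-06, edgeR). Of 19 listed genes of ATF4-driven amino acid synthesis and transport, 12 were tested in liver. Asns was the single one of these 12 that was called, and their median was 0.32. Among all liver genes tested 6.94% were called higher, so 1 of 12 is near that share. Of 11 tested ATF4 stress factors 3 rose, Trib3 by 2.24 ± 0.43, Atf3 by 2.49 ± 0.68 and Ddit3 by 1.42 ± 0.42 (adjusted p 0.00116, 0.0198 and 0.0322, edgeR). Trib3 is a pseudokinase that restrains ATF4, and Ddit3 a transcription factor of endoplasmic reticulum stress. Ddit3 shares 68 exon bases with the synthetase gene Mars. Atf4 itself had a log2 fold change of 0.42 ± 0.22 (adjusted p 0.277, edgeR).

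The 5 synthetases whose promoters hold the element shown above did not rise with Asns. Their liver log2 fold changes were 0.07 ± 0.19 for Aars, 0.23 ± 0.16 for Gars, -0.25 ± 0.25 for Iars, -0.52 ± 0.23 for Tars and -0.09 ± 0.28 for Yars, and none was called. In kidney Asns measured 1.05 ± 0.57 (adjusted p 0.702, edgeR), and in cerebellum -0.29 ± 0.13 (adjusted p 0.464, edgeR). In those tissues 0 of 16 and 0 of 19 tested genes of the amino acid list were called, against 0.694% and 0.997% of all genes.

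Few other genes of the translation machinery were called. Among all genes tested, 11.7% were called in either direction in liver, 0.694% in kidney and 0.997% in cerebellum. At the shares of kidney and cerebellum, 0 calls are usual for lists this short. The scaffold genes Aimp1, Aimp2 and Eef1e1 were called in 0 of 3 tissues. Of 13 genes of mitochondrial tRNA amidation and translation factors, 0 were called in any tissue. Their medians were -0.16 in liver, -0.46 in kidney and -0.31 in cerebellum, against -0.04, -0.07 and 0.00 over all genes. In kidney all 13 had log2 fold changes below 0, the highest at -0.11. Of the cytosolic elongation factors 0 were called. Of the 4 eIF2 kinases, Eif2ak2, which senses double-stranded RNA and is itself an interferon target, rose in cerebellum by 2.44 ± 0.41 (adjusted p 0.00249, edgeR) and the other 3 were not called.

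Whether the genotype difference itself differed between tissues was tested as an interaction of genotype and tissue. By edgeR 0 of 36 members were called in liver against kidney (1.5% of all genes called), liver against cerebellum (2.67%) and kidney against cerebellum (0.114%). The nearest was Aars2, whose log2 fold change of p150neg over p150pos was -1.08 in liver and 0.11 ± 0.21 in cerebellum. The difference between liver and cerebellum was -1.19 ± 0.34 with an adjusted p of 0.0546 (edgeR). Pars2 was second in that pair, at 1.89 ± 0.67 (adjusted p 0.14, edgeR). For liver against kidney the smallest p values belonged to Cars (-1.02 ± 0.43, adjusted p 0.374, edgeR) and Dars (-0.54 ± 0.33, adjusted p 0.714). For kidney against cerebellum they belonged to Dars (0.69 ± 0.26, adjusted p 0.429, edgeR) and Farsb (0.47 ± 0.30, adjusted p 0.841). The fall of Aars2 was called in liver alone, but a difference from the other tissues was not called.

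Levels of different genes were compared per length, as transcripts per 1000000 (TPM) on the length of the principal transcript, over the 7 p150pos libraries of each tissue. High cytosolic members were Nars (91.8 TPM in liver, 103 in kidney and 247 in cerebellum) and Dars (90.1, 119.5 and 173 TPM), the 2 highest in liver and kidney. Farsb measured 61.3, 86.4 and 178 TPM and was second to Nars in cerebellum. Tars, at 65.1 TPM, was next after Nars and Dars in liver. Wars reached 30.8 TPM in liver, 48.0 in kidney and 116 in cerebellum. Lars2 was the highest mitochondrial member in every tissue, at 463, 340.2 and 185 TPM, above every cytosolic member in liver and kidney. The next mitochondrial members were Fars2 in liver (53.8 TPM) and kidney, and Rars2 in cerebellum (58.0 TPM). Mars2, the mitochondrial methionine enzyme, was the lowest of all, at 0.941, 1.73 and 2.48 TPM. Lars2 varied widely, from 185 to 1117 TPM over the p150pos livers. Its counts were correlated with those of the mitochondrial ribosomal RNA mt-Rnr1, as given below. What that relation means for the level of Lars2 was not tested. When exon unions replaced the principal transcript, Lars2 and Mars2 kept their first and last places among the mitochondrial members. For Mars2 both lengths were 11294 bases, so the change of length could not test its own place. By CPM, which leaves length out, Mars2 was not the lowest in p150pos cerebellum. Its mean there was 13.8 CPM, against 8.68 CPM for Wars2 and 7.85 CPM for Ears2. Among the cytosolic ones Dars moved from rank 3 to rank 6 in cerebellum. In liver and kidney Dars moved to rank 3, behind Nars and Farsb, and Farsb led in kidney. Rars2 then passed Fars2 in kidney, at 67.1 against 42.5 TPM.

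**Figure D3:**
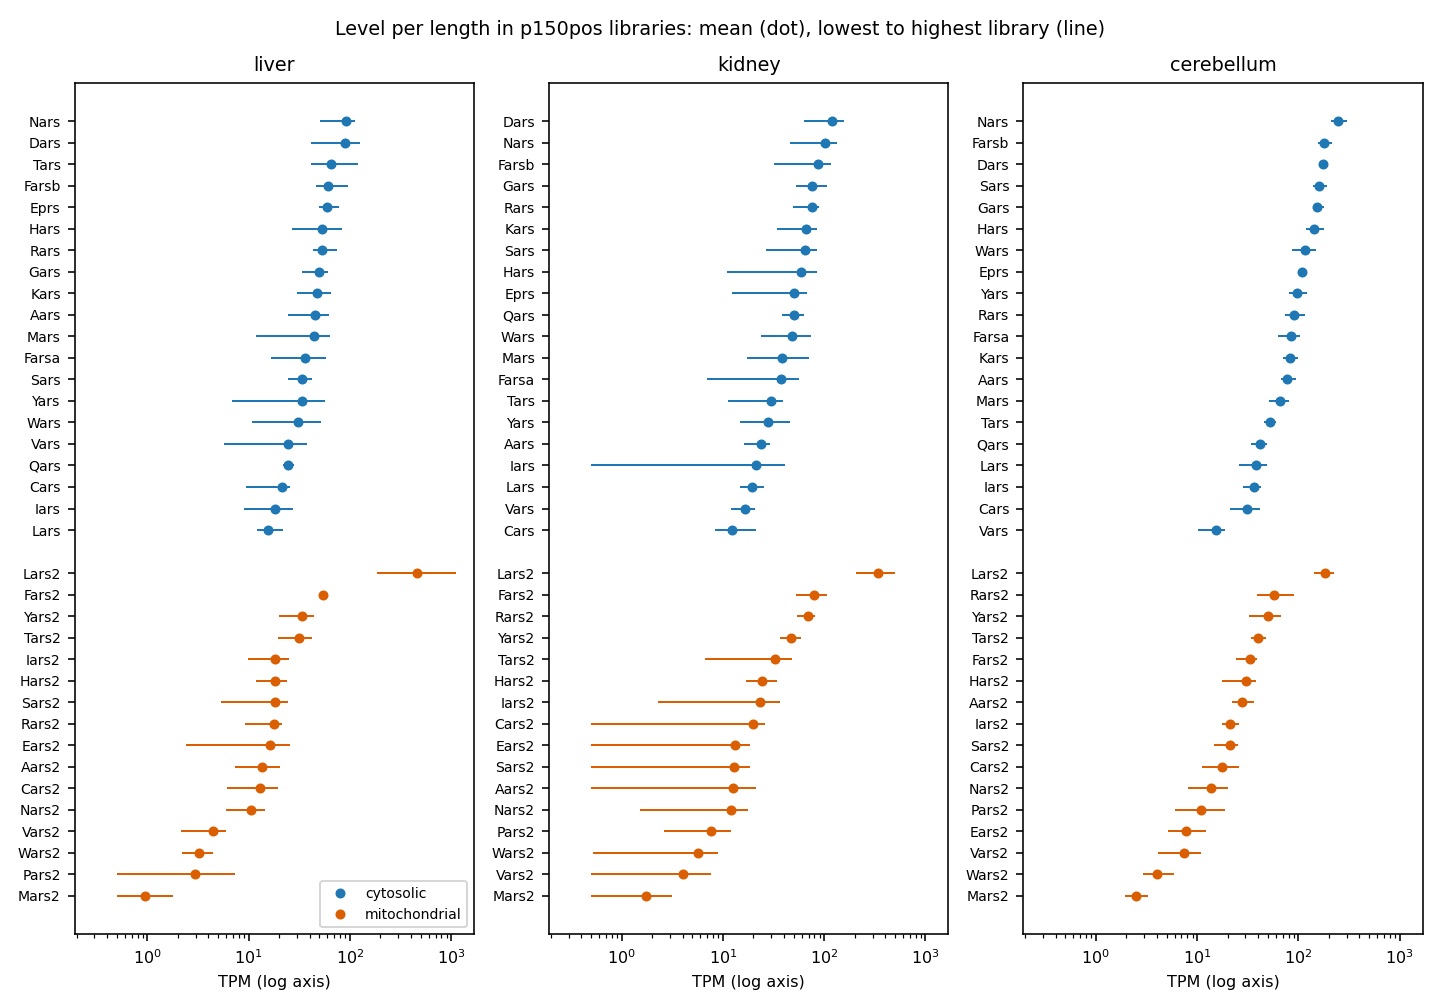
Level per length in TPM (log x axis) of each synthetase in the 7 p150pos libraries of each tissue, ordered by mean within the cytosolic (blue) and mitochondrial (orange) class; dots are means and lines run from the lowest to the highest library, with levels under 0.5 TPM drawn at 0.5. Lars2 leads the mitochondrial genes in all 3 tissues, at 463, 340.2 and 185 TPM.

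For 13 amino acids both a cytosolic and a mitochondrial gene were measured, and the 2 levels could be compared within each library. On TPM the cytosolic gene was the higher one, by its mean over p150pos libraries, for 10 amino acids in liver, 8 in kidney and 12 in cerebellum. The median log2 ratio of mitochondrial over cytosolic TPM stood at -1.50 for liver, -1.08 for kidney and -1.02 for cerebellum. Mars measured 43.8, 38.3 and 66.1 TPM in liver, kidney and cerebellum, against 0.941, 1.73 and 2.48 TPM for Mars2. Wars exceeded Wars2 7.64-fold, 8.82-fold and 26.0-fold, as the mean log ratio with 0.5 TPM added to both genes. The leucine pair ran the other way, with log2 ratios of Lars2 over Lars of 4.59 ± 1.18 in liver, 4.06 ± 0.62 in kidney and 2.29 ± 0.47 in cerebellum (SD, n = 7). Yars2 and Iars2 were close to their cytosolic partners in liver, with log2 ratios of 0.17 ± 0.60 and 0.06 ± 0.29.

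The mitochondrial genes together took 43.8% ± 15.2 of the synthetase TPM in p150pos liver, 41.6% ± 8.21 in p150pos kidney and 21.1% ± 2.09 in p150pos cerebellum (SD, n = 7 each). Lars2 alone made up 58.0%, 47.7% and 34.8% of the mitochondrial sum. Without Lars2 the spread shrank, and the mitochondrial share was 22.5% ± 1.73, 26.4% ± 1.54 and 14.8% ± 1.68. In p150neg libraries that share without Lars2 was 19.8% ± 1.93 in liver (n = 7), 19.7% ± 5.20 in kidney (n = 5) and 14.2% ± 1.05 in cerebellum (n = 8).

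In kidney the 5 p150neg values of the share without Lars2 were 21.9, 10.7, 20.0, 22.3 and 23.6% in animals 1, 3, 8, 9 and 16, and the 7 p150pos values ran from 23.9 to 28.1%. These groups did not overlap, with or without animal 3. With Lars2 included they did overlap, at 28.8 to 46.5% in p150neg and 34.1 to 57.6% in p150pos kidneys. Without Lars2 the liver values ran from 18.3 to 23.8% in p150neg and from 18.8 to 23.8% in p150pos. The cerebellum values without Lars2 ran from 13.1 to 16.4% and from 13.0 to 17.9%, and the groups overlapped in both tissues. No test was made on this share, which sums over genes that were not called one by one. Kidney neutrophil markers summed to 108 to 237 CPM in p150neg and 10.2 to 88.1 CPM in p150pos libraries, and 1 of 4 tested markers was called. The macrophage and monocyte markers summed to 174 to 786 CPM against 223 to 503 CPM, with 0 of 10 tested called. Markers of dividing cells summed to 56.9 to 293 CPM against 98.9 to 442 CPM, with 0 of 6 called. The ranges of these last lists overlapped, and the part of any of these cells in the share was not tested.

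Lars2 varied widely between libraries of the same group. In liver it ranged over 459, 743 and 6549.6 CPM in p150neg and over 411, 667 and 3349.7 CPM in p150pos, and the log2 fold change was 0.45 ± 0.60 (adjusted p 0.727, edgeR). The highest liver, that of p150neg animal 16, was also the shallowest, at 0.532 M counts. In kidney Lars2 measured 465, 1702, 638, 354 and 667 CPM in the p150neg kidneys of animals 1, 3, 8, 9 and 16, and 474, 672 and 1417 CPM (lowest, median, highest) in p150pos. The mitochondrially encoded small ribosomal RNA, mt-Rnr1, was set beside it after these values had been seen. On log2 counts per 1000000 of library totals, the 2 were correlated across the 14 liver libraries with Pearson's r = 0.88 and Spearman's rho = 0.90 (two-sided permutation p 2.40e-04 and 2.00e-05, adjusted over 3 tissues 5.55e-04 and 6.00e-05). Across the 12 kidneys r was 0.87 and rho 0.69 (permutation p 3.70e-04 and 0.017, adjusted 5.55e-04 and 0.017), and across the 15 cerebella 0.76 and 0.62 (permutation p 0.0019 and 0.0164, adjusted 0.0019 and 0.017). Without the 2 libraries farthest from the median of mt-Rnr1, r came to 0.83 for liver, 0.66 for kidney and 0.72 for cerebellum. Within genotypes r was 0.87 and 0.94 in p150neg and p150pos liver, 0.95 and 0.74 in kidney, and 0.88 and 0.12 in cerebellum, so that the relation did not hold within p150pos cerebella. Both genes are shares of the same library totals.

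**Figure D4:**
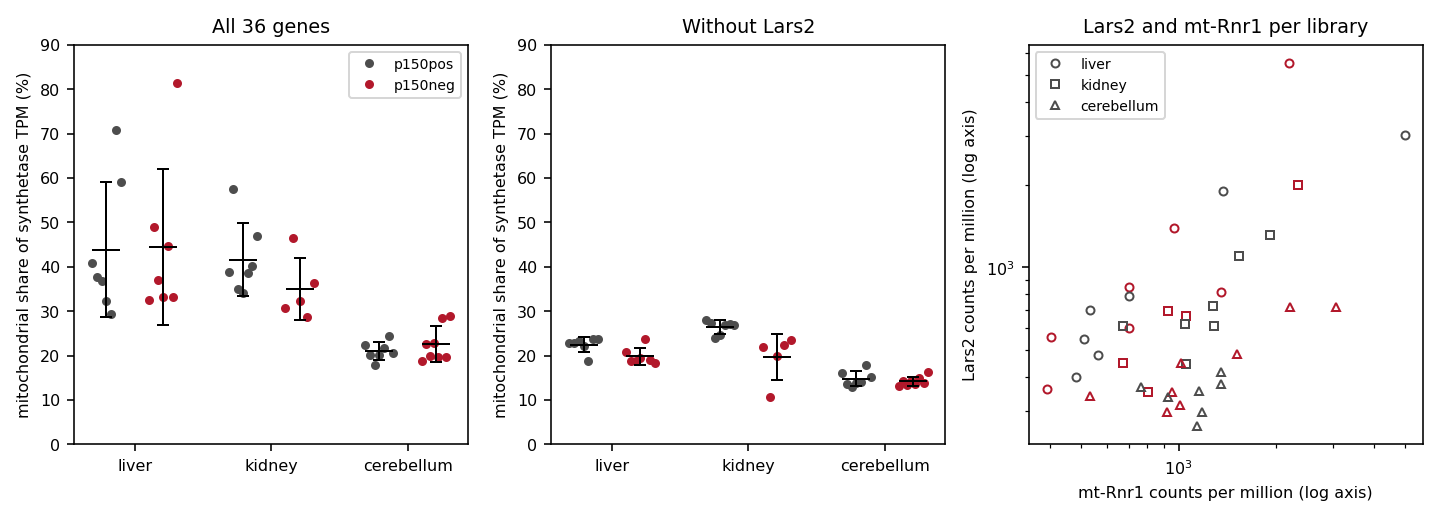
Mitochondrial share of synthetase TPM in percent per library with all 36 genes (left) and without Lars2 (centre), with mean and SD, and Lars2 against mt-Rnr1 in counts per 1000000 of library totals on log axes (right); grey is p150pos and red p150neg, and the shapes on the right are tissues. Without Lars2 the 5 p150neg kidneys lie at or below 23.6% and the 7 p150pos kidneys at or above 23.9%. With all 36 genes the kidney groups overlap, at 28.8 to 46.5% and 34.1 to 57.6%.

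Differences between tissues were tested in p150pos animals, and their direction depends on what counts as unchanged. TMM normalisation puts the median gene near 0, at a log2 fold change of 0.01 for liver over kidney, -0.11 for liver over cerebellum and -0.04 for kidney over cerebellum. Scaling to library totals puts it at -0.83, -1.10 and -0.19. Relative to the median gene, 12 members were higher and 1 lower in liver than in kidney (22.2% and 22.5% of all genes called), 20 higher and 4 lower in liver than in cerebellum (34% and 39.1%), and 7 higher and 13 lower in kidney than in cerebellum (31.9% and 33.4%). With library totals the counts were 3 higher and 10 lower, 5 higher and 21 lower, and 4 higher and 13 lower. With the animal as a block, kidney over cerebellum gave 4 higher and 12 lower.

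A smaller set was called in 1 direction under all 7 settings run. For liver over cerebellum, 1 of the 7 removed no library and repeated the main fit, namely that without libraries with few genes detected. Liver exceeded kidney in Tars (log2 fold change 1.96 ± 0.24), Aars (1.75 ± 0.18) and Cars (1.59 ± 0.26) and fell below it in Rars2 (-1.16 ± 0.19), the mitochondrial arginine enzyme. The adjusted p values were 1.24e-06, 1.58e-07, 5.89e-05 and 3.66e-05 (edgeR). Aars shares 1326 exon bases with Exosc6 on the same strand. Lars2 (1.41 ± 0.44, adjusted p 0.0136) kept its direction with library totals without being called.

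Liver exceeded cerebellum in Lars2 (2.73 ± 0.42), Ears2 (2.29 ± 0.33), Fars2 (1.97 ± 0.15), Vars (1.91 ± 0.26) and Tars, under all 7 settings. Adjusted p values of the first 4 were 9.08e-06, 4.02e-06, 5.02e-10 and 2.27e-06 (edgeR). Sars (-0.98 ± 0.13), Wars (-0.69 ± 0.24) and Gars (-0.38 ± 0.13) were lower in liver under all 7, with adjusted p values of 1.95e-06, 0.015 and 0.013. Rars2 (-0.46 ± 0.20, adjusted p 0.044) was lower in the main setting. Of the 20 members higher in liver, 13 changed sign with library totals, among them Aars, Cars, Eprs and Yars2.

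Kidney exceeded cerebellum in Fars2 (1.66 ± 0.15), Lars2 (1.31 ± 0.20), Qars and Rars2 under all 7 settings, and in Ears2 (1.14 ± 0.45) and Wars2 (0.88 ± 0.36) in some. The adjusted p values of Fars2, Lars2, Ears2 and Wars2 were 1.20e-08, 1.52e-05, 0.0333 and 0.0404 (edgeR). The 12 members lower in kidney under all 7 settings were all cytosolic. The 4 with the largest differences were Yars (-1.40 ± 0.21), Aars (-1.33 ± 0.14), Sars (-0.91 ± 0.17) and Cars (-0.89 ± 0.26), with adjusted p values of 1.14e-05, 8.60e-08, 1.11e-04 and 0.00588 (edgeR). No member called higher or lower between kidney and cerebellum changed sign with library totals.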

How the data were processed

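The deposited table holds raw read counts per gene for 46 libraries, with the molecule given as total RNA in the labels. For these counts made by the authors, the submitters' processing notes name STAR 2.4.2a, SAMtools 1.2, Picard 1.134, FastQC 0.11.3 and HTSeq 0.4.1 on GRCm38 (mm10). Libraries were built with the Nextera XT kit, per the labels' protocols. Annotation and strand setting are not given in the sources used here, so overlapping genes may share reads. Among the members, Iars2 shares 2034 exon bases with Rab3gap2, Aars 1326 with Exosc6 and Fars2 501 with Nrn1. Of 53471 rows, 6 repeated an identifier, which left 53465 genes. The members and gene lists were chosen with earlier results of these data known, and 5 libraries with other-organ RNA were left out.

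Each tissue was fitted separately with edgeR 4.0.16 in R 4.3.3 (TMM, quasi-likelihood test, filterByExpr at a count of at least 10 and a total of at least 15), with DESeq2 1.42.0 as an alternative. Named were Wars, every called member and, per tissue, the 3 members of each class with the smallest p, plus the called members with the 4 largest differences per direction between tissues. The test was checked on simulated liver counts. A gene and a promoter window that the rules would name are not reported here. TPM used transcript lengths of GRCm38 gene models, and log2 ratios of TPM had a pseudocount of 0.5. Total counts per library had a median of 2.93 M (M, 1000000), and the limit given for a count of 0 covers counting error only.

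Tissues were paired by the animal identifier in the titles. Over genes, deviations from the group means in 2 tissues of 1 animal correlated at -0.0125 to 0.266 (liver and kidney, 11 animals), -0.0168 to 0.301 (liver and cerebellum, 13) and -0.18 to 0.221 (kidney and cerebellum, 11). The main fits had no block, and blocked fits used animals with both tissues.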

Additional observations from a re-analysis of the deposited data

Results flagged for a closer look

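In 42 groups of 4 to 10 libraries of the named members, chance alone sets 1 library apart in about 1 of 20 groups, and 6 values stood apart by Dixon's criterion. Tars reached 264 CPM in the p150pos liver of animal 12, where the next highest of 7 was 151 CPM. In the p150neg kidney of animal 3, Wars was at 0 and the other 4 libraries began at 59.1 CPM. Dars in the same library reached 392 CPM, above the next value of 189 CPM. In the p150neg cerebellum of animal 11, Dars was at 86.0 CPM, below the next lowest of 138 CPM, and Nars at 199 CPM, below the next lowest of 286 CPM. Dars reached 217 CPM in the p150pos cerebellum of animal 4, above the next value of 189.8 CPM.

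The 5 libraries left out for other-organ RNA also held synthetase reads beyond those of their labelled organ's p150pos libraries, on counts per 1000000 of library totals. In the library labelled liver of animal 2, 10 members exceeded every p150pos liver, led by Rars2 at 51.8 against at most 22.5. In the library labelled kidney of animal 2, 12 members exceeded every p150pos kidney, led by Vars at 111 against 45.5. The library labelled kidney of animal 11 had 5 such members, led by Nars at 390.2 against 200.2. The library labelled kidney of animal 12 had 2, led by Lars2 at 6178 against 1312. In the library labelled cerebellum of animal 7, 10 members exceeded every p150pos cerebellum, led by Vars at 52.2 against 37.2.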

How the results depend on the processing

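Of 724 recomputed values, 688 kept their direction and their side of the threshold or stayed within the spread. Some settings left out the same libraries as another setting, or none, and so repeat a fit. In liver the members called were 3 with DESeq2, 2 with a block for the letters that open each animal's identifier, and 1 to 4 when single libraries were left out. The liver median of mitochondrial members was -0.28 without libraries under 1000000 counts, and -0.28 to -0.14 over single libraries left out. Wars in kidney changed sign to -0.09 with that block and ran from -0.09 to 0.30 over single libraries left out. Wars in cerebellum was 0.01 with Xist as a covariate. The interaction of liver against cerebellum gave 1 member, Aars2, with all labelled libraries. The causes were not tested.

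Between tissues, library totals in place of TMM factors gave 3 higher and 10 lower members for liver over kidney, and 5 higher and 21 lower for liver over cerebellum. Without an expression filter 12 were higher in liver than in cerebellum. For kidney over cerebellum the higher members were 4 with library totals, with RLE size factors, without a filter, and with the animal as a replicate block (pairing by animal). The block changed no other count by more than 1.5 times, and the interaction counts were 0 with it. Library totals and the fits without libraries with few genes detected were added after seeing the data. Depth limits the low mitochondrial members most, and 13 animals or fewer had both tissues.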
